A study of Mus musculus with 8 samples.

Results

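The genes described here are 9 enzymes and carriers of glycosphingolipid metabolism: *St3gal5*, *Ugcg*, *B4galt5*, *B4galt6*, *Neu3*, *Gba2*, *B4galnt1*, *St3gal2* and *Gltp*. They were taken by name from a table of 55416 mouse genes, and all 9 were found there. The list was drawn up around *St3gal5* because its level was lower in the knockout livers, so that difference is given as a description, and its place in the fit over all genes is no independent test of it. The study measured RNA by sequencing in 8 mouse livers. There were 4 floxed controls, labelled Alb-cre-, and 4 hepatocyte *Smpd3* knockouts, labelled Alb-cre+, in which Cre recombinase driven by the albumin promoter removes the floxed *Smpd3* gene in hepatocytes. All 8 libraries came from animals fed the HFMCD diet for 9 weeks, used here to induce steatohepatitis. The labels give neither strain, sex nor age. Cre was present in the knockouts alone, so its own effect and that of losing *Smpd3* cannot be told apart. Whether every library had its own animal is not stated in the labels, and p-values then measure only the spread between these samples, which may be technical.

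Glycosphingolipids are membrane lipids made of a ceramide that carries sugars. The enzyme encoded by *Ugcg* adds glucose to ceramide, those of *B4galt5* and *B4galt6* add galactose to give lactosylceramide, and that of *St3gal5* adds sialic acid to lactosylceramide to give GM3, the first ganglioside and the parent of most others. In liver, GM3 is a main ganglioside, and gangliosides of the plasma membrane are known for their influence on receptor signalling, including that of the insulin receptor. The enzyme removed in these animals, neutral sphingomyelinase 2 (*Smpd3*), acts elsewhere in sphingolipid metabolism, where it releases ceramide from sphingomyelin.

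The 3 genes that carry ceramide to GM3 in consecutive steps are shown by the 250 bases before their transcription start, because the last of the 3 is the gene that chose the list and the other 2 did not pass the test. The sequences are those of RefSeq on GRCm38.p6, read 5′ to 3′ on the strand of the gene, and 6 of the 9 genes were matched in that table. Capitals mark the GC box (GGGCGG) and the CCAAT box (CCAAT) on either strand.
St3gal5, chr6:72097358-72097607, plus strand: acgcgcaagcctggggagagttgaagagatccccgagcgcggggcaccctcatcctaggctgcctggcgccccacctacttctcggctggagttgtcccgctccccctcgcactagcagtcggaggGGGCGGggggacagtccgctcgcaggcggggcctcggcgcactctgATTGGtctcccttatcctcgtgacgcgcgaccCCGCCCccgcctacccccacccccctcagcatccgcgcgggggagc
B4galt5, chr2:167349179-167349428, minus strand: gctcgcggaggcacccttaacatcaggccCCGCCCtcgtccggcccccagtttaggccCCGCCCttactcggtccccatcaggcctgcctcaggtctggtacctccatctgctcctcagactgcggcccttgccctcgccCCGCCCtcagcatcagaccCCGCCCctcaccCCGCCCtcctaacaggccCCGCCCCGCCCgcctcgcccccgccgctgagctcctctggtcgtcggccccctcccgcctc
Ugcg, chr4:59189300-59189549, plus strand: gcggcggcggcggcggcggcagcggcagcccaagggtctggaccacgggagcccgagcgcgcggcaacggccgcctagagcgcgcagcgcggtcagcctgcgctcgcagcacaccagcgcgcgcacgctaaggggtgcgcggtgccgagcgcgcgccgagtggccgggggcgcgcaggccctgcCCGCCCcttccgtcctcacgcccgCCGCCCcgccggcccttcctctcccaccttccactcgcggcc
All are rich in G and C, at 71.6% for *St3gal5*, 73.2% for *B4galt5* and 80.4% for *Ugcg*, against a median of 52.4% over 32851 promoter windows of this length. The *St3gal5* window held 2 GC boxes and 1 CCAAT box. The *B4galt5* window held 7 GC boxes, of which a neighbouring pair overlaps, and the *Ugcg* window held 2, and neither held a CCAAT box. Of all windows, 32.7% held a GC box and 33.8% a CCAAT box. None of the 3 windows held a TATA box (TATAAA, in 12.4% of all windows), the clock E-box (CACGTG, 6.02%), the D-box (TTATGTAA, 0.819%) or a nuclear receptor half-site (AGGTCA, 14.0%), searched on both strands. Such matches describe the letters of these windows, and the binding of any factor was not measured.

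Levels are given as TPM, transcript abundances corrected for transcript length and scaled to a common library total, so that genes can be compared with one another. Sequencing depth cannot be read from them. Fold changes are differences of mean log2(TPM + 1), knockout minus control, and come out too small where TPM is low. The test covered the 12710 genes that reached 1 TPM in 4 or more libraries, and all 9 listed genes were among them. The targeted gene *Smpd3* averaged 9.58 ± 2.65 TPM in controls and fell to 1.88 ± 0.86 TPM on deletion (SD, n = 4 per group). By an exact 2-sided permutation test p was 0.0286 for *Smpd3*, the lowest value possible with 70 ways of assigning the libraries. Hepatocyte markers dominated every library (summed level of 7 markers 70890 to 91241 TPM). Floxed control 4 stood apart from the other controls, with 12115 genes at 1 TPM or more against 12678 to 12871, and with the lowest summed level of all 8 libraries in 6 of the 7 lists of markers of other liver cells.

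**Figure D1:**
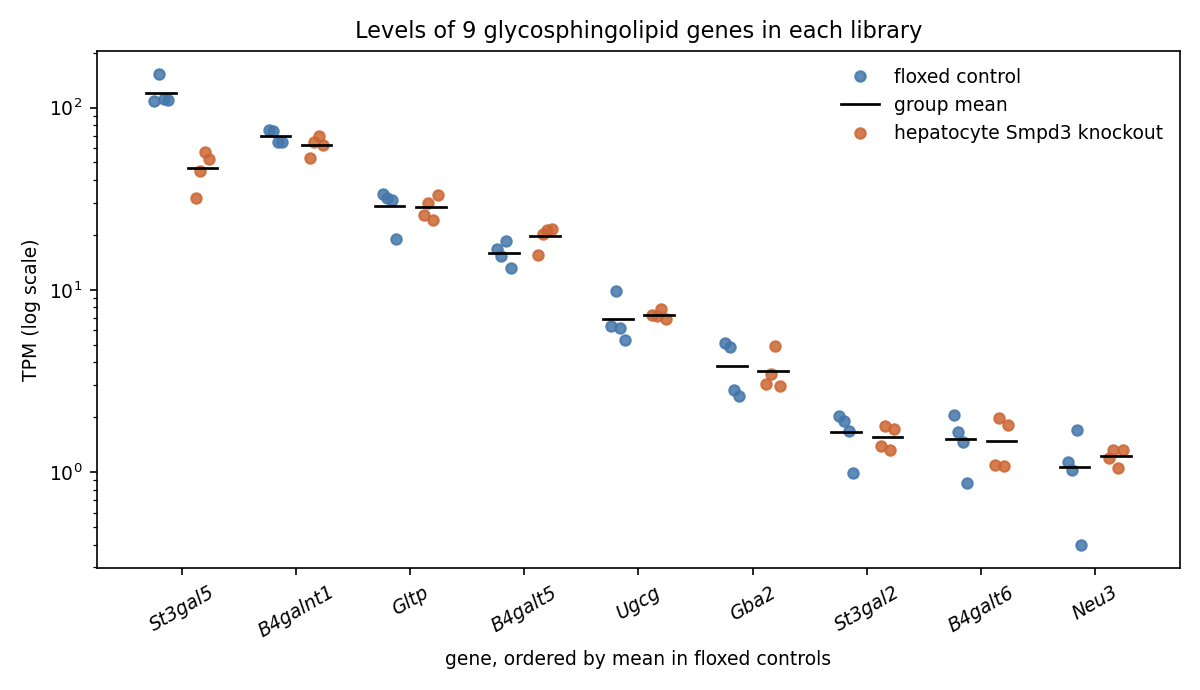
TPM of each of the 9 genes on a log axis, with 1 point per library (4 floxed controls in blue, 4 knockouts in orange) and a bar at each group mean. *St3gal5* is the one gene whose groups do not overlap, with controls at 109 to 152 TPM and knockouts at 32.1 to 57.0 TPM.

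*St3gal5* (ENSMUSG00000056091) was the most abundant of the 9 genes in control livers and was lower in every knockout library. Floxed controls 1 to 4 had 109, 152, 112 and 110.0 TPM, and knockouts 1 to 4 had 32.1, 45.0, 57.0 and 52.0 TPM. Controls 1, 3 and 4 were within 3 TPM of one another, control 2 was higher, knockout 1 was the lowest library, and the groups did not overlap. The controls averaged 121 ± 21.1 TPM and the knockouts 46.5 ± 10.8 TPM (SD, n = 4 per group), which is 38.5% of the control level, with a log2 fold change of -1.37 ± 0.18 (SE). By level it ranked 942 among the 12710 tested genes in the controls and 2125 in the knockouts. The fit over all genes contains the values that chose the list, so nothing is read from the place of *St3gal5* in it. There it was 1 of 7 genes called lower in limma at an adjusted p of 0.05, which is 0.0551% of those tested, and 1.46% of tested genes had knockouts all below the controls. That call was lost without the filter on low values (adjusted p = 0.167), with the replicate number as a block (0.0803), and without control 1, control 4, knockout 2 or knockout 3 (0.0622 to 0.0978). In bulk tissue, fewer cells that express a gene and less of its RNA per cell cannot be told apart. The annotation has a transcript with a clone name overlap *St3gal5* on the opposite strand, and that transcript averaged 0.035 TPM in controls and 0.0125 TPM in knockouts. A predicted gene on the same strand also overlaps *St3gal5*, with means of 0.035 TPM in controls and 0.0175 TPM in knockouts.

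None of the 8 other genes passed the test in either direction, while 0.102% of all tested genes did (0.0551% lower and 0.0472% higher). In limma 0 of the 8 reached an unadjusted p under 0.05 either, against 8.02% of all tested genes (2.45% lower and 5.57% higher). In all 8 the groups overlapped, where 1.46% of all tested genes had no overlap in the lower direction and 3.29% in the higher. With shares this small over all genes, counts of 0 among 8 say little about these genes. Their log2 fold changes ran from -0.16 to 0.29 with a median of -0.0089, beside a median of 0.05 over all tested genes. That is 3 above 0 and 5 below, where 64.6% of all tested genes were above 0.

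The genes that make glucosylceramide and lactosylceramide did not pass the test. *Ugcg* (ENSMUSG00000028381), the glucosylceramide synthase, stood at 6.33, 9.89, 6.21 and 5.32 TPM in controls 1 to 4 and at 7.28, 7.17, 7.87 and 6.88 TPM in knockouts 1 to 4. The knockouts lay close together inside the range of the controls, where control 2 was again the highest library. The log2 fold change of *Ugcg* was 0.09, with a 95% limma interval of -0.28 to 0.47 (adjusted p = 0.955). *B4galt5* (ENSMUSG00000017929), the more abundant of the 2 lactosylceramide synthase genes, had 16.7, 15.2, 18.6 and 13.2 TPM in controls 1 to 4, against 15.5, 20.2, 21.4 and 21.5 TPM in knockouts 1 to 4. Knockouts 2, 3 and 4 were above every control and knockout 1 was within the control range. Its log2 fold change was 0.29 with an interval of -0.02 to 0.60 (adjusted p = 0.663 in limma), the highest of the 9. *B4galt6* (ENSMUSG00000056124), the other lactosylceramide synthase gene, was low throughout, at 0.87 to 2.06 TPM in controls and 1.08 to 1.97 TPM in knockouts. *B4galt5* exceeded *B4galt6* by 8.08 to 15.1 times in the controls and by 10.2 to 19.8 times in the knockouts, ranges that overlapped.

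Downstream of GM3, neither listed gene passed the test. *B4galnt1* (ENSMUSG00000006731), which encodes the enzyme that adds N-acetylgalactosamine to GM3 to open the ganglio series, stood at 75.0, 74.4, 64.8 and 64.6 TPM in controls 1 to 4. In knockouts 1 to 4 it stood at 53.0, 64.8, 69.9 and 62.6 TPM. Knockouts 1 and 4 were below every control, with knockout 1 the lowest, and knockouts 2 and 3 lay within the control range. The log2 fold change of *B4galnt1* was -0.16 with an interval of -0.39 to 0.07 (adjusted p = 0.796 in limma). Without knockout 1 it was -0.08. In the annotation *B4galnt1* overlaps *Slc26a10* on the opposite strand, which averaged 1.70 TPM in controls and 2.035 TPM in knockouts. *St3gal2* (ENSMUSG00000031749), whose enzyme adds a terminal sialic acid to gangliosides of that series, was low, at 0.99 to 2.04 TPM in controls and 1.33 to 1.79 TPM in knockouts. Its log2 fold change was -0.04, with an interval of -0.41 to 0.34.

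The 2 breakdown genes and the carrier gene also overlapped between the groups. *Neu3* (ENSMUSG00000035239), the sialidase of the plasma membrane that acts on gangliosides, was the least abundant, at 1.14, 1.03, 1.71 and 0.40 TPM in controls and 1.19, 1.32, 1.05 and 1.33 TPM in knockouts. *Gba2* (ENSMUSG00000028467), the non-lysosomal glucosylceramidase, stood at 5.11, 4.83, 2.81 and 2.62 TPM in controls and 3.05, 3.47, 4.93 and 2.95 TPM in knockouts. The annotation has *Gba2* overlap *Creb3* and *Rgp1* on the opposite strand, with control means of 27.5 and 11.3 TPM. Although the kit kept strand, per the labels, no source used here says whether the counting did, and the value of *Gba2* is therefore uncertain. *Gltp* (ENSMUSG00000011884), the glycolipid transfer protein that moves glycosphingolipids between membranes, stood at 33.7, 31.95, 30.96 and 19.1 TPM in controls and 25.8, 29.99, 24.1 and 33.3 TPM in knockouts. Control 4 was the low library there, and without it the log2 fold change of *Gltp* went from -0.0080 to -0.19 (adjusted p = 0.766 in limma). The intervals with all libraries were -0.30 to 0.58 for *Neu3*, -0.53 to 0.43 for *Gba2* and -0.40 to 0.39 for *Gltp*.

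Control 4 was the lowest control for all 8 genes other than *St3gal5*. After scaling each library by the median of its ratios to the mean library, where the factor of control 4 was 0.843, it was the lowest control for *B4galt6*, *St3gal2*, *Neu3* and *Gltp* only. *St3gal5* in control 4 lay beside controls 1 and 3 before that scaling, and at 130 TPM, between control 3 and control 2, after it. The *St3gal5* groups did not overlap on either scale, and its log2 fold change was -1.43 after scaling.

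The order of the genes by mean level differed between the groups in the first pair only. In controls it was *St3gal5*, *B4galnt1*, *Gltp*, *B4galt5*, *Ugcg*, *Gba2*, *St3gal2*, *B4galt6* and *Neu3*. The ranges of neighbours did not overlap from *St3gal5* down to *St3gal2*, whereas *St3gal2*, *B4galt6* and *Neu3* could not be ordered beyond their spread. In knockouts *B4galnt1* came first and *St3gal5* second. *St3gal5* was above *B4galnt1* in 4 of 4 controls, at 1.45 to 2.05 times its level, and below it in 4 of 4 knockouts, at 0.605 to 0.832 times. The ranges of *St3gal5* and *Gltp* were apart in the controls and overlapped in the knockouts.

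**Figure D2:**
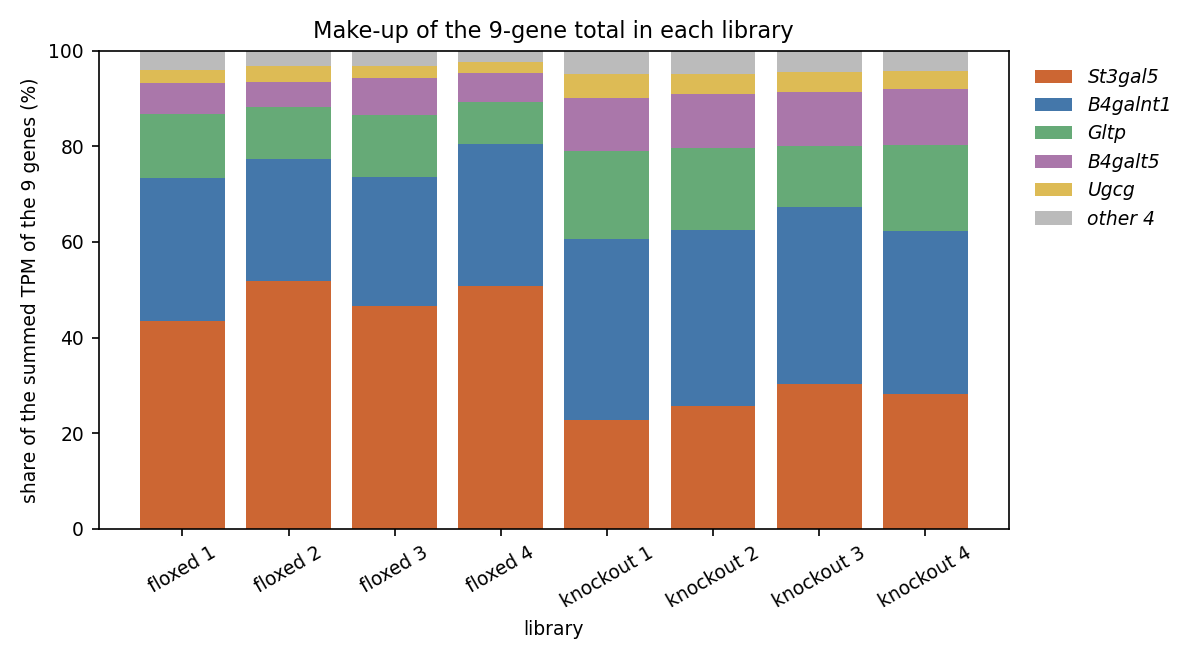
Share of the summed TPM of the 9 genes taken by each gene (percent, stacked to 100) in each of the 8 libraries, with the 4 least abundant genes joined. *St3gal5* takes 43.4% to 51.9% in the controls and 22.8% to 30.2% in the knockouts.

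Ratios within a library do not depend on how libraries were scaled. The level of *St3gal5* over that of *B4galt5*, whose product it uses, was 6.54, 9.99, 6.02 and 8.36 in controls 1 to 4 and 2.07, 2.23, 2.67 and 2.42 in knockouts 1 to 4. Over *Ugcg* it was 15.4 to 20.7 in controls and 4.41 to 7.56 in knockouts. Both ratios separated the groups, but *St3gal5* is their numerator. They therefore carry the difference that chose the list and are no further result. The ratio of *B4galt5* to *Ugcg*, the 2 steps before *St3gal5*, was 1.54 to 2.99 in controls and 2.13 to 3.13 in knockouts. The 8 genes without *St3gal5* summed to 130 ± 16.3 TPM in controls and 126 ± 11.6 TPM in knockouts (SD, n = 4 per group).

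Other genes of the pathway were then counted, from a list of 40 that feed, branch from or break down glycosphingolipids. Of these, 30 passed the filter on low values and none passed the test in either direction. Since only 0.102% of all tested genes passed it, a count of 0 among 30 says little about them. In limma 1 of the 30, *St3gal1*, had an unadjusted p under 0.05, and it was higher, as were 5.57% of all tested genes at that level. The 30 log2 fold changes ran from -0.36 to 0.41, with 18 above 0 and 12 below and a median of 0.019. Over all tested genes 64.6% were above 0, and the median was 0.05.

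**Figure D3:**
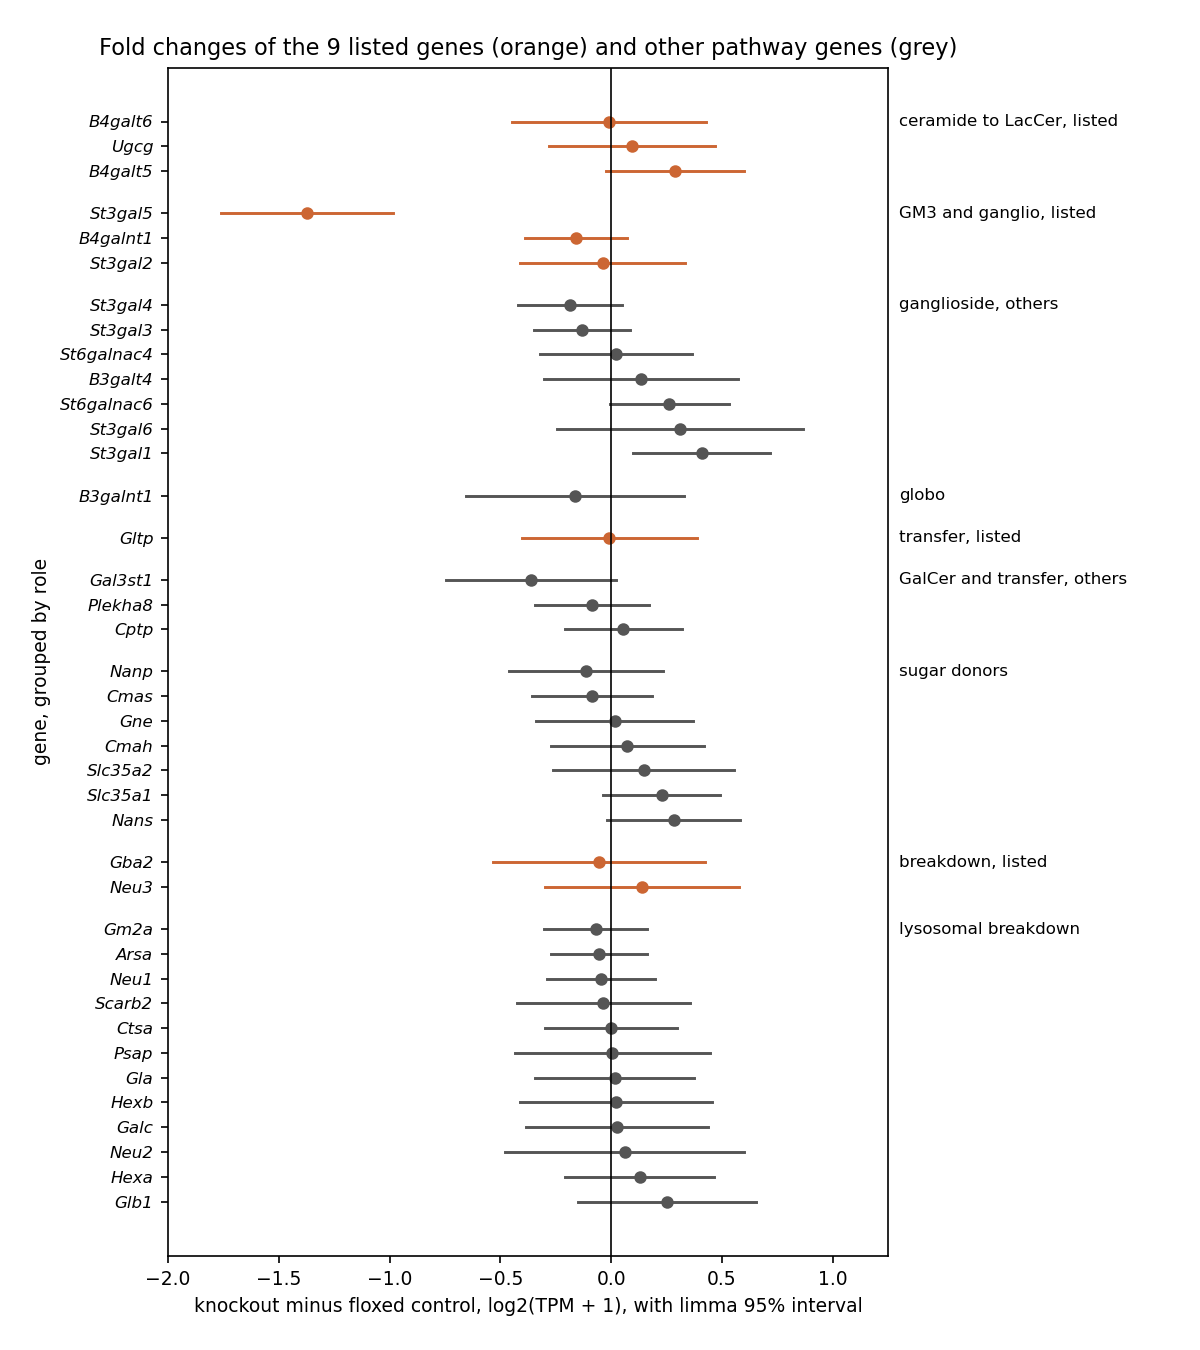
Knockout minus floxed control on the log2(TPM + 1) scale (horizontal axis) for the 9 listed genes in orange and the 30 other tested genes in grey, grouped by role, with 95% limma intervals from 4 libraries per group. *St3gal5* lies at -1.37, and the others lie between -0.36 and 0.41.

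The sialyltransferases that share the *St3gal* name with *St3gal5* attach sialic acid in the same linkage to other acceptors, many of them on glycoproteins. *St3gal1* stood at 22.9, 19.6, 25.6 and 20.6 TPM in controls and 26.3, 25.4, 30.3 and 37.8 TPM in knockouts. Knockout 2 was the only knockout within the control range, and knockout 4 was the highest. The log2 fold change of *St3gal1* was 0.41 with an interval of 0.10 to 0.72 (adjusted p = 0.435 in limma). *St3gal4* stood at 56.9, 57.4, 56.4 and 56.1 TPM in controls and 40.2, 50.9, 53.7 and 55.3 TPM in knockouts. The controls of *St3gal4* were very close together and all knockouts lay below them, though knockout 4 by under 1 TPM. Its log2 fold change was -0.19 (adjusted p = 0.732 in limma) and -0.09 without knockout 1. *St3gal3*, at 55.7 ± 6.36 and 50.6 ± 2.12 TPM (SD, n = 4 per group), and the low *St3gal6*, at 1.43 ± 0.70 and 1.97 ± 0.71 TPM, overlapped between the groups. *St3gal5* was 1.74 to 2.71 times *St3gal3* in the controls and 0.647 to 1.16 times in the knockouts.

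The ganglioside branch as a whole had 12 listed genes, of which 7 were tested. Beside the sialyltransferases above, *St6galnac6*, whose enzyme adds sialic acid to N-acetylgalactosamine of complex gangliosides, stood at 33.0 to 46.0 TPM in controls and 43.3 to 55.8 TPM in knockouts (log2 fold change 0.26, adjusted p = 0.633 in limma). Of 4 genes of the globo and lacto branches, which compete for lactosylceramide, 1 was tested. That was *B3galnt1*, at 0.97 to 2.01 TPM in controls and 0.57 to 1.83 TPM in knockouts.

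Genes that supply the sugar donors were all 7 tested, 5 with values above 0 and 2 below, where 64.6% of all tested genes were above 0. *Gne*, whose enzyme starts the synthesis of sialic acid, was the most abundant, at 102, 144, 83.9 and 105 TPM in controls and 96.5, 101, 134 and 103 TPM in knockouts. Its group means were 108 ± 25.2 and 109 ± 17.2 TPM (SD, n = 4 per group). *Nans*, which makes sialic acid phosphate, stood at 21.7 ± 3.82 and 26.4 ± 2.79 TPM, and *Slc35a1*, which carries CMP-sialic acid into the Golgi, at 8.13 ± 0.45 and 9.73 ± 1.11 TPM. Their log2 fold changes were 0.28 and 0.23 (adjusted p = 0.658 and 0.693 in limma). *Slc35a2*, the UDP-galactose carrier, and *Nanp*, the phosphatase of sialic acid synthesis, had values of 0.15 and -0.11.

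Of 4 genes of galactosylceramide synthesis and of lipid transfer, 3 were tested. *Gal3st1*, the sulfotransferase that makes sulfatide, stood at 3.06, 1.52, 1.73 and 1.91 TPM in controls and 1.61, 1.3, 1.18 and 1.28 TPM in knockouts. Control 1 was the high library, and knockout 1 alone lay within the control range (log2 fold change -0.36, adjusted p = 0.660 in limma). *Cptp*, the ceramide 1-phosphate transfer protein, was at 10.4 ± 1.07 and 10.8 ± 0.94 TPM (SD, n = 4 per group).

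The list of breakdown genes, most of them lysosomal, held 13 members, 12 of them tested, with log2 fold changes from -0.07 to 0.25. *Psap*, the precursor of the saposins that present glycosphingolipids to lysosomal enzymes, was the most abundant, at 541 to 1003 TPM in controls and 685 to 1036 TPM in knockouts. *Hexa*, which encodes the alpha subunit of the hexosaminidase that degrades GM2, stood at 66 to 105 TPM and 87.2 to 116 TPM. *Glb1*, the beta-galactosidase that degrades GM1, stood at 8.46 ± 1.95 and 10.2 ± 1.67 TPM (SD, n = 4 per group; adjusted p = 0.824 in limma). Control 4 was the lowest library in all of these, and without it the log2 fold change of *Psap* went from 0.0054 to -0.20, of *Hexa* from 0.13 to -0.03 and of *Glb1* from 0.25 to 0.09.

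Genes with a profile like that of *St3gal5* were sought among 7992 named genes with a mean of at least 5 TPM, by the mean absolute difference of log2 values centred on each gene's mean over the 8 libraries. The 6 closest were *Fkbp5* (0.243), *Nrg4* (0.286), *Il6ra* (0.290), *Mfsd2a* (0.292), *Spata2l* (0.293) and *Marco* (0.305), while the median gene differed by 0.717. The libraries and the difference between the groups are shared by all of these values, and a gene that is lower in the knockouts by a like amount is close to *St3gal5* by construction. *Fkbp5*, a cochaperone of steroid receptors, stood at 25.8, 36.2, 24.4 and 33.5 TPM in controls and 9.49, 13.1, 21.2 and 10.95 TPM in knockouts. *Marco* is a scavenger receptor gene of Kupffer cells, not of hepatocytes. By the same measure *Smpd3* had rank 14 (0.356), *B4galnt1* rank 631 (0.608), *Gltp* rank 2364, *Ugcg* rank 4796 and *B4galt5* rank 7307, and the other listed genes were below 5 TPM.

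**Figure D4:**
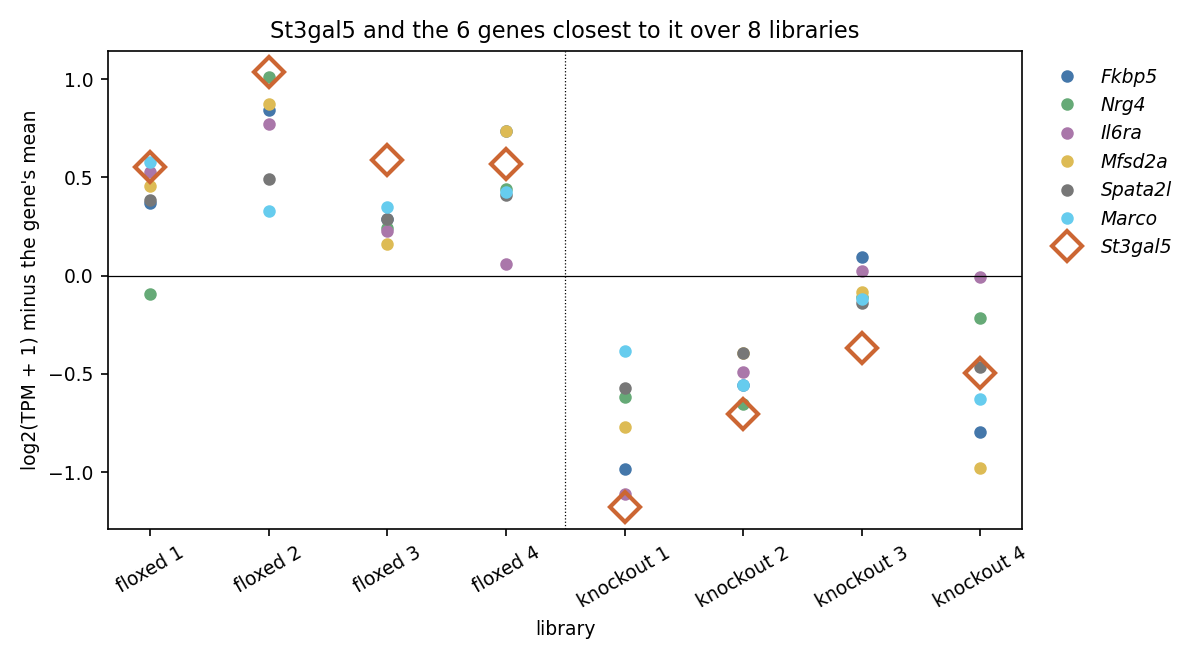
log2(TPM + 1) minus each gene's own mean over the 8 libraries, for *St3gal5* (open diamonds) and the 6 genes closest to it (points), with floxed controls left of the dotted line and knockouts right of it. *St3gal5* is above its mean in the 4 controls and below it in the 4 knockouts.

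Markers of other cells and clock genes are given beside *St3gal5*, and their part in its difference was not tested. The summed level of 10 liver endothelial markers was 77.4 to 180 TPM in controls and 102 to 130 TPM in knockouts, with 9 of the 10 lower by mean. For 10 Kupffer cell and macrophage markers it was 692 to 1437 and 911 to 1305 TPM. By mean TPM 6 of the 10 were lower, although the median log2 fold change of the 10 was 0.013. In other lists most markers were higher by mean. These were 8 of 8 of T and NK cells, 8 of 10 of stellate cells and fibroblasts and 6 of 7 of recruited macrophages. So were 5 of 6 of cholangiocytes and 4 of 6 of B and plasma cells. These counts compare mean TPM, whereas the share over all genes is by log2 fold change, and the 2 measures can differ in sign. *Clec4f*, *Csf1r* and *Gpnmb* were lower by mean TPM yet had log2 fold changes of 0.021, 0.0049 and 0.0047. Of all tested genes, 64.6% had a log2 fold change above 0. Their median was 0.05, and -0.0057 without control 4. The T and NK cell markers summed to 7.78 to 23.5 TPM in controls and 12.6 to 29.3 TPM in knockouts. Of 7 hepatocyte markers 5 were lower. In all 8 marker lists the summed levels of the groups overlapped, and no marker was at 0 in all libraries. Among 15 clock genes, the groups did not overlap in 6, with *Arntl*, *Npas2*, *Cry1* and *Nfil3* higher and *Dbp* and *Ciart* lower in the knockouts, where 3.29% of all tested genes had no overlap in the higher direction and 1.46% in the lower. *Dbp*, a clock output gene, stood at 18.6, 35.4, 5.43 and 31.4 TPM in controls and 2.67, 3.06, 3.27 and 1.68 TPM in knockouts. Control 3 was the low control for *Dbp*, though still above every knockout. Its *St3gal5* level was that of controls 1 and 4, and a link between the 2 genes was not tested. The labels give no time of collection.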

How the data were processed

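The authors deposited 1 table of TPM (length-scaled transcript abundances that add up to a fixed library total), with 55416 mouse gene identifiers and 8 columns. RSEM 1.3.3 and GRCh38.p13 appear in the submitters' processing notes, and that build is human although the identifiers belong to mouse. Aligner, annotation release and strand setting were not given in the sources used here. Since depth is lost in TPM, counting error cannot be stated and count models were not used. No 2 libraries held identical values. Columns were matched to samples by description, and symbols came from a table that matched 52083 identifiers (1 hepatocyte marker was not matched).

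The 12710 genes that reached 1 TPM in 4 or more libraries were fitted as log2(TPM + 1) in limma 3.58.1 under R 4.3.3 (lmFit, eBayes with trend), knockout minus floxed control without covariates, with Benjamini-Hochberg adjustment over all of them and a threshold of 0.05. The fit was tested on simulated data. *Smpd3* was also tested by an exact permutation test. The listed genes and gene lists were chosen with earlier results of these data known. Named were the 9 genes, *Smpd3*, the 12 other pathway genes of smallest p, the most abundant of each role and the 6 genes closest to *St3gal5*. One gene of the pathway list is not reported here. Genes outside this rule were chosen after their values were seen. Each fit was repeated with a pseudocount of 0.1 or 5, with all genes above 0 or only those averaging 5 TPM or more, and with the replicate number as a block. It was also repeated after median-of-ratios scaling, after rescaling to a total that leaves out the 20 most abundant genes and the mitochondrial genome, and without each library in turn. Promoter windows and gene neighbours came from RefSeq and GENCODE on GRCm38, which may not be the build used by the authors. The only coordinates printed are those of the RefSeq promoter windows, on that build.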

Additional observations from a re-analysis of the deposited data

Results flagged for a closer look

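Among 52 groups of 4 libraries checked, those of the listed genes, *Smpd3* and the named pathway genes, 3 held a library far from the other 3, by Dixon's test of the gap to the nearest library over the group's range, at its 95% critical value. Chance alone flags about 1 group in 20, and 5.54% of the groups of all tested genes were flagged. *St3gal5* in floxed control 2 was 152.25 TPM, against 109 to 112 TPM in the other controls. Without that library the log2 fold change of *St3gal5* was -1.26. *Hexa* in floxed control 4 was 66 TPM, against 98.7 to 105 TPM in the other controls. *Gne* in knockout 3 was 134.18 TPM, against 96.5 to 103 TPM in the other knockouts.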

How the results depend on the processing

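*St3gal5* and *Smpd3* were lower in the knockout in each of the 15 alternatives run. The log2 fold change of *St3gal5* was -1.37 without the filter (adjusted p = 0.167 over 26719 genes in limma) and with the replicate block (adjusted p = 0.0803), and -1.48 to -1.21 without one library. It lost its call without floxed control 1 (adjusted p = 0.0874), floxed control 4 (0.0830), knockout 2 (0.0978) or knockout 3 (0.0622). *Smpd3* had -1.89 without the filter (adjusted p = 0.167) and with the block (0.0818), and -2.06 to -1.76 without one library, with no call in 5 of those 8 fits. Same-numbered libraries did not pair: their deviations from the group means correlated at -0.15, 0.03, -0.15 and -0.20 for numbers 1 to 4. Of the 9 genes, 0 were called lower without the filter or with the block, and 0 to 1 without one library. None of the other 8 genes or the 30 pathway genes was called in any alternative. Over all genes, the 7 lower calls became 4 and 3 with pseudocounts of 0.1 and 5, 0 without the filter or with the block, and 0 to 7 without one library. The 6 higher calls became 3 with a pseudocount of 5, 10 after rescaling, 0 without the filter or with the block, and 0 to 9 without one library. The cause was not tested.

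Genes near 0 changed sign when one library was left out, where log2 fold changes ran from -0.0045 to 0.26 for *Ugcg*, -0.14 to 0.092 for *B4galt6*, -0.17 to 0.033 for *St3gal2*, -0.036 to 0.28 for *Neu3*, -0.18 to 0.072 for *Gba2* and -0.19 to 0.074 for *Gltp*. For the other named pathway genes that changed sign the ranges were -0.027 to 0.20 for *Hexa*, -0.28 to 0.014 for *B3galnt1*, -0.0032 to 0.11 for *Cptp*, -0.10 to 0.16 for *Gne* and -0.20 to 0.10 for *Psap*. *Gne* and *Psap* were at -0.042 and -0.054 after median-of-ratios scaling and at -0.0080 and -0.019 after rescaling. Of the 6 genes closest to *St3gal5*, 5 were kept with a pseudocount of 0.1, 2 with a pseudocount of 5, 6 after either scaling and 3 to 4 without one library, settings chosen after the data were seen. The low genes *Neu3*, *B4galt6* and *St3gal2* had SEs of 0.20, 0.20 and 0.17, beside 0.18 for *Gltp* and 0.20 for the abundant *Psap*. Depth behind the low genes is unknown.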

Other observations

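Of the 40 other pathway genes, 10 did not pass the filter on low values. *St8sia1*, whose enzyme turns GM3 into GD3, stood at 0.03 to 0.16 TPM in controls and 0.03 to 0.08 TPM in knockouts. *A4galt*, which opens the globo branch from lactosylceramide, stood at 0.56 to 1.10 and 0.65 to 1.22 TPM. *B3gnt5*, which opens the lacto branch, stood at 0.03 to 0.09 and 0.02 to 0.12 TPM. *St8sia5*, *St6galnac5* and *Neu4* were listed at 0 in all 8 libraries. *St8sia3* stood at 0.45, 0.11, 0.40 and 0.77 TPM in controls and 0.16, 0.02, 0.04 and 0.04 TPM in knockouts. These genes were named after their values were seen.

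With values centred within each group, so that the difference between the groups no longer counts, the 6 genes closest to *St3gal5* were *Rnf169* (mean absolute difference 0.057), *Cops7b* (0.060), *Ildr2* (0.065), *Serpina3m* (0.067), *Ubr2* (0.067) and *Slc35a2* (0.067), against a median of 0.220 over 7992 genes. *Slc35a2*, the Golgi carrier of UDP-galactose, was on the fixed pathway list. It stood at 12.9, 16.6, 13 and 11.7 TPM in controls and 10.3, 14.4, 17.8 and 19.0 TPM in knockouts. Which genes were closest depended on single libraries, since 0 to 3 of the 6 were kept without one library. With other settings 3 were kept with a pseudocount of 0.1, 1 with a pseudocount of 5, 4 after median-of-ratios scaling and 5 after rescaling.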
